A study of Mus musculus with 24 samples.

Results

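The steroid-converting enzymes described here are 10 genes of the *Akr1c*, *Hsd3b*, *Hsd17b* and *Srd5a* families, namely *Akr1c14*, *Akr1c18*, *Akr1c21*, *Srd5a1*, *Hsd3b2*, *Hsd3b3*, *Hsd17b1*, *Hsd17b2*, *Hsd17b11* and *Hsd17b14*. They were chosen by name, as the genes to which a probe's accession maps, and with earlier results of these data known. They are 10 of the 27959 genes tested. RNA of 24 whole kidneys of male mice was measured on 1-colour arrays with 1 kidney per array. The labels call the mice young adults, while the methods give an age within the fourth and the fifth week of life, around the onset of puberty. The 6 control kidneys came from mgb+/+ mice, and the 18 mutant kidneys came from age-matched mgb-/- mice, which were graded by ultrasound as mildly (n = 7), moderately (n = 5) or severely (n = 6) hydronephrotic. The megabladder (mgb) mouse is a mutant line in which the bladder fails to contract and urine backs up into the kidneys from before birth. How far each kidney was exposed to obstruction before grading was not measured here. All graded kidneys were mgb-/- and all controls mgb+/+, so genotype and obstruction cannot be told apart. The sources used here give no strain, and it is not known from them how many kidneys each animal gave, so p-values measure only the spread between these kidneys. The question the comparisons address is how transcription in the kidney differs between mgb-/- and control animals and between grades of hydronephrosis.

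Steroid hormones are switched on and off in the tissues where they act by enzymes that oxidize or reduce single positions of the molecule. Aldo-keto reductases of the AKR1C family reduce keto groups and mostly turn active androgens and progestins into weaker products, whereas 5α-reductase makes dihydrotestosterone from testosterone. The 3β-hydroxysteroid dehydrogenases act on the precursors of all steroid hormone classes, and the 17β-hydroxysteroid dehydrogenases interconvert strong and weak estrogens and androgens. The mouse kidney is a target of androgens, and many of its genes for metabolic enzymes differ in level between males and females.

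Levels are given as log2 of the processed array signal relative to the array's 75th percentile, so 0 is the level of that percentile, and a difference of 1 is a 2-fold difference. Levels of different genes come from different probes, and those of the 10 enzymes were not set against each other. Sums over marker genes, given below, add signals of different probes and depend on how bright each probe is. A gene was called changed when limma gave an adjusted p under 0.05 (Benjamini-Hochberg, over all genes) and the change was at least 2-fold. All 11 probes of the 10 enzymes were well above background on all 24 arrays, and no spot was saturated. The share of probes well above background ranged from 55.6% to 70.7% per array, and severe 4 had the lowest share and the most outlier spots (660). The labels name no mutated gene. *Myocd*, a smooth muscle cofactor whose expression in the bladder is known to be lost in mgb mice, had a control mean of -4.07 and an mgb-/- mean of -3.48 (adjusted p = 0.248 by limma), so its level in these kidneys did not separate the genotypes.

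Some kidneys carried transcripts of the adrenal cortex, the gland beside the kidney that makes corticosteroids. *Cyp21a1*, the steroid 21-hydroxylase of the adrenal cortex, lay between -3.44 and -1.95 in the controls but reached 6.96 in mild 4 and 7.00 in moderate 1. The summed signal of *Cyp11a1*, *Cyp11b1*, *Cyp21a1* and *Star*, which together carry cholesterol into corticosteroid synthesis, was 7.58 in mild 4 and 7.52 in moderate 1 on the log2 scale, against -2.86 to -1.46 in the controls. Each of these 4 markers was above every control in 8 kidneys, namely mild 2, 4, 5, 6 and 7, moderate 1 and 3, and severe 4. In severe 4 the rise was weak, with *Cyp11a1* at -6.33 and not well above background there. Of 10 adrenal markers listed, 9 were tested and none was called in mgb-/- against control kidneys. Of these, 0 had an unadjusted p under 0.05 in limma, beside 8108 of all 27959 genes. In mild against control kidneys 4 of the 9 had, beside 5977 of all genes, and none was called. In severe against mild kidneys all 9 were lower and 4 had such a p, beside 3104 of all genes, and none was called. The summed level of the list ranged from 2.48 to 2.72 in the controls, 2.26 to 7.79 in mild, 2.47 to 7.85 in moderate and 1.37 to 2.64 in severe kidneys. Where the other markers were low this sum was mostly *Pik3c2g*, at 2.30 on average in the controls, which was lower in mgb-/- kidneys (-1.03, adjusted p = 0.329 by limma) and at -4.86 and not well above background in severe 4, so the low end of the severe range is not a measure of the other markers. Results are therefore also given without mild 4 and moderate 1 and without all 8 kidneys.

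Comparing all mgb-/- with control kidneys, 5 of the 10 enzymes were called lower (*Akr1c14*, *Akr1c18*, *Akr1c21*, *Hsd3b3* and *Hsd17b11*) and 1 was called higher (*Hsd17b14*). Over all genes tested, 1.26% were called lower and 1.83% higher. The median change over the 10 enzymes was -1.24 on the log2 scale, beside 0.01 over all genes. Over the 28 further steroid genes tested, given below, it was -0.03. The 10 enzymes were chosen with earlier results of these data known, so these contrasts describe the chosen genes only. *Hsd3b2* passed the adjusted p but changed less than 2-fold, and *Hsd17b1*, *Hsd17b2* and *Srd5a1* did not pass the test. The same 6 genes were called without mild 4 and moderate 1, while without all 8 kidneys with adrenal transcripts, which leaves 10 mgb-/- kidneys, only *Hsd17b11* and *Hsd17b14* were. The 4 enzymes that lost the call then had changes of -2.80 (*Akr1c14*, adjusted p = 0.0926 by limma), -1.56 (*Akr1c18*, 0.0813), -1.64 (*Akr1c21*, 0.118) and -1.70 (*Hsd3b3*, 0.112), in the same direction and at least 2-fold. Leaving out control 3 alone reduced the calls to 3 (*Akr1c14*, *Hsd17b11* and *Hsd17b14*). The lost enzymes then changed by -1.79 (*Akr1c18*, adjusted p = 0.0556), -1.78 (*Akr1c21*, 0.0505) and -1.66 (*Hsd3b3*, 0.0538). The share of all genes called in these smaller fits was not counted, so the lost calls cannot be set against it. In whole tissue, fewer cells of a type and less RNA per cell cannot be told apart.

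**Figure D1:**
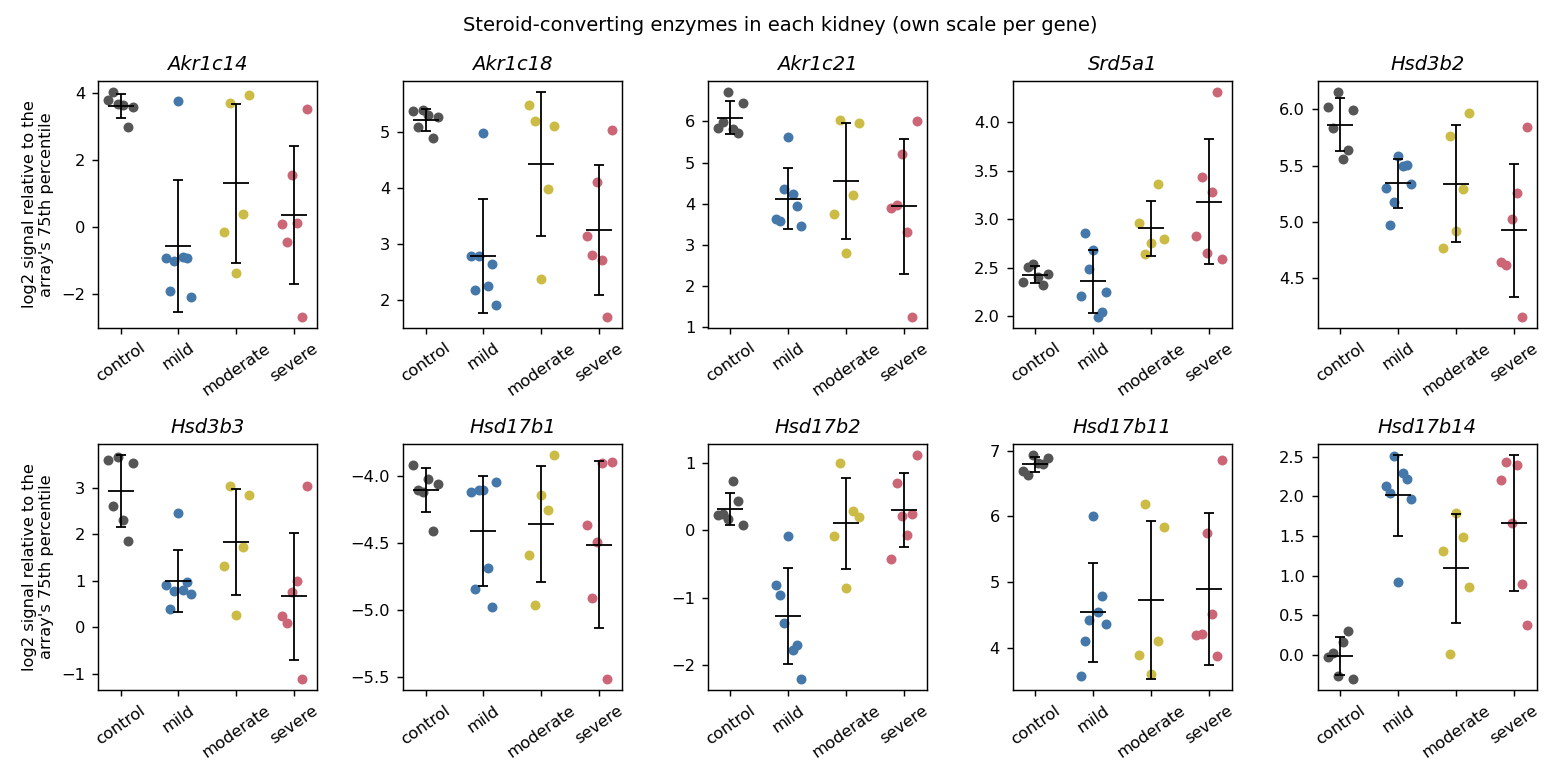
Level of each enzyme (log2 signal relative to the array's 75th percentile, own scale per gene) in 6 control, 7 mild, 5 moderate and 6 severe kidneys; each point is 1 kidney, and bars give the mean and SD of the group. Most mgb-/- points of *Akr1c14*, *Akr1c18*, *Akr1c21*, *Hsd3b3* and *Hsd17b11* lie below the controls, and 17 of 18 points of *Hsd17b14* lie above them, with 1 to 5 mgb-/- kidneys of each falling gene within or above the control range.

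Among the aldo-keto reductases, all 3 members chosen here fell in mgb-/- kidneys, but the family as a whole did not. *Akr1c6*, *Akr1c12*, *Akr1c13* and *Akr1c19*, the other *Akr1c* genes tested, changed by -0.18, -0.03, 0.11 and 0.59 (adjusted p by limma of 0.800, 0.941, 0.683 and 0.158), and none was called. *Akr1c14*, a 3α-hydroxysteroid dehydrogenase that inactivates dihydrotestosterone, changed most. Its level was 3.80, 4.02, 3.67, 3.64, 2.99 and 3.58 in control 1 to 6, and in mild kidneys it had a lowest value of -2.10, a median of -0.93 and a highest value of 3.77. It was -0.14, 3.71, -1.37, 0.39 and 3.93 in moderate 1 to 5, and -2.67, 0.11 and 3.52 (lowest, median and highest) in severe kidneys. Thus 14 of the 18 mgb-/- kidneys lay below every control, all but severe 3 by more than 2 units, while mild 4, moderate 2, moderate 5 and severe 6 lay inside the control range and nothing lay between 1.55 and 2.99. The mean fell by 3.35 (SE 0.85, 10.2-fold, adjusted p = 0.0137 by limma) in all mgb-/- kidneys, by 4.18 (SE 0.98, adjusted p = 0.0155) in mild and by 3.26 (SE 1.02, adjusted p = 0.0342) in severe kidneys. The moderate difference of -2.31 (SE 1.07, adjusted p = 0.251) did not pass the test, with 2 of its 5 kidneys at the control level.

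*Akr1c18*, the 20α-hydroxysteroid dehydrogenase that inactivates progesterone and a known transcript of the juvenile mouse adrenal cortex, was lower in the same kind of distribution. The controls lay between 4.90 and 5.40 with a median of 5.29. Mild kidneys had a lowest value of 1.92, a median of 2.64 and a highest value of 4.99, and moderate 1 to 5 had 5.49, 5.20, 2.39, 3.98 and 5.11. In the severe kidneys the lowest, median and highest values were 1.71, 2.98 and 5.04. Below every control lay 13 of the 18 mgb-/- kidneys, and moderate 1 lay above every control. The mean fell by 1.82 (SE 0.51, 3.54-fold, adjusted p = 0.0222 by limma) in all mgb-/- kidneys, by 2.43 (SE 0.53, adjusted p = 0.00994) in mild and by 1.97 (SE 0.55, adjusted p = 0.0216) in severe kidneys, whereas the moderate difference was -0.79 (SE 0.58, adjusted p = 0.482). Without mild 4 and moderate 1, the 2 kidneys with most adrenal transcripts, the mgb-/- mean fell by 2.05 (adjusted p = 0.00878), and without all 8 such kidneys by 1.56 (adjusted p = 0.0813).

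**Figure D2:**
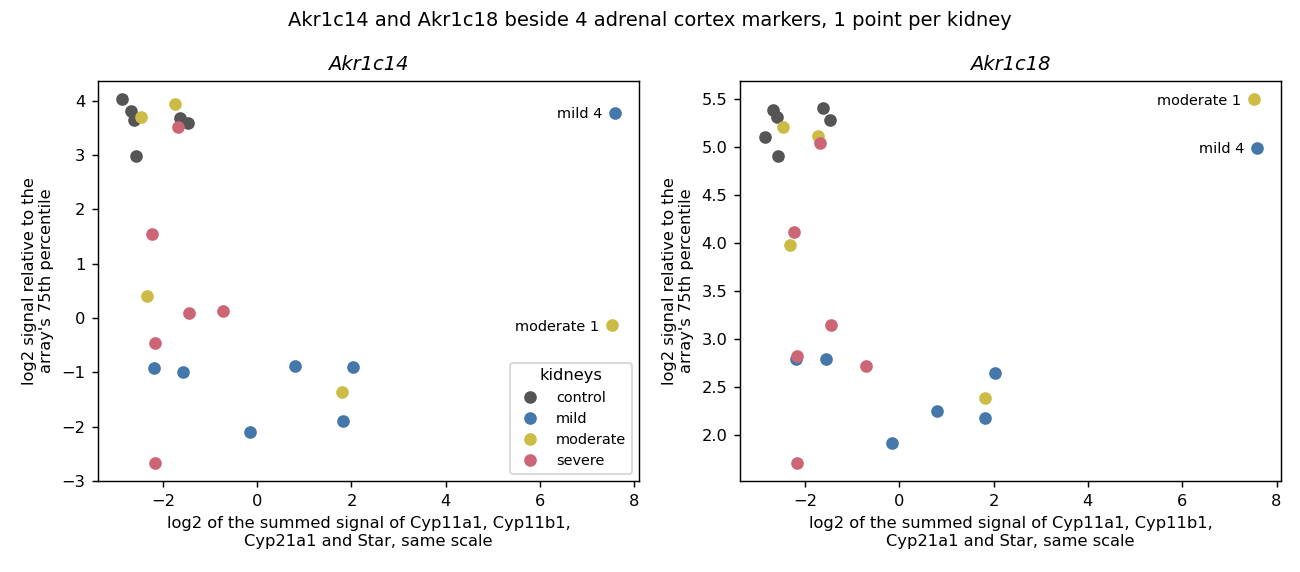
Level of *Akr1c14* and *Akr1c18* (vertical axes, log2 signal relative to the array's 75th percentile) against the log2 of the summed signal of 4 adrenal cortex markers on the same scale, with 1 point per kidney coloured by group. Mild 4 and moderate 1 stand at 7.58 and 7.52 on the horizontal axis. Moderate 1 is at the top for *Akr1c18* (5.49) but not for *Akr1c14* (-0.14), and the other mgb-/- kidneys at control level have sums of these 4 markers within the control range.

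*Akr1c21*, a hydroxysteroid dehydrogenase that reduces androgens and progestins, lay between 5.71 and 6.71 in the controls (median 5.91). Its values were 3.45 to 5.63 in mild kidneys (median 3.95), 3.75, 6.03, 2.80, 4.20 and 5.97 in moderate 1 to 5, and 1.25 to 6.00 in severe kidneys (median 3.93). All 7 mild kidneys lay below every control, as did 3 of 5 moderate and 5 of 6 severe kidneys. The mean fell by 1.91 (SE 0.50, 3.76-fold, adjusted p = 0.0158 by limma) in all mgb-/- kidneys and by 2.15 (SE 0.63, adjusted p = 0.0257) in severe kidneys. In mild kidneys the difference of -1.97 (SE 0.60, adjusted p = 0.0550) fell just short of the threshold, although no value overlapped the controls, and in moderate kidneys the difference was -1.54 (SE 0.66, adjusted p = 0.215). Severe 5 had the lowest *Akr1c14*, *Akr1c18*, *Akr1c21* and *Hsd3b3* of all 24 kidneys. It also had the lowest summed level of 13 proximal tubule markers (8.86, against 10.6 to 10.9 in the controls and at least 10.1 in the other mgb-/- kidneys), and the part of this in its enzyme levels was not tested.

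The 3 *Akr1c* genes called lower lie on mouse chromosome 13, and the 150 bases before their start sites (RefSeq, build GRCm38.p6, strand of the gene) are shown. The other 4 *Akr1c* genes tested were not called, and their promoters were not searched separately. *Akr1c14* is at chr13:4059441-4059590 on the plus strand, *Akr1c18* at chr13:4150647-4150796 on the minus strand and *Akr1c21* at chr13:4573925-4574074 on the plus strand. Capitals mark a match to GTTAAT, a core motif of the tubule and liver factor HNF1, on either strand.
Akr1c14: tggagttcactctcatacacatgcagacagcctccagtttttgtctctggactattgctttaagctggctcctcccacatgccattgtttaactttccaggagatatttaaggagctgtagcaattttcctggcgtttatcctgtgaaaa
Akr1c18: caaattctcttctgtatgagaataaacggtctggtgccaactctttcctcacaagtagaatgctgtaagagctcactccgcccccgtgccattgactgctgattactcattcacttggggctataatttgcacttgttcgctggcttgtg
Akr1c21: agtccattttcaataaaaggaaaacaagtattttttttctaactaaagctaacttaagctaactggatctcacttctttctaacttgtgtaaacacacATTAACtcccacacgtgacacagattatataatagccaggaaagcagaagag
The motif was searched on both strands in the 250 bases before each start, where 6.43% of 32851 promoters hold it, and among the 7 of 10 enzymes with a promoter in the table only *Akr1c21* did, with 1 match 52 bases before the start. AGAACA, the core bound by the androgen and glucocorticoid receptors, is in 16.1% of promoters and was matched only in *Hsd3b2*, while TATAAA, the TATA box, is in 12.4% and was matched in none of the 7. A match of this kind is a description of the letters and not a site.

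*Srd5a1*, the 5α-reductase that makes dihydrotestosterone, went the other way in the higher grades. The controls lay closely together between 2.32 and 2.54, and mild kidneys spread around them from 2.00 to 2.86 (median 2.25). In moderate 1 to 5 the values were 2.96, 2.64, 2.75, 3.37 and 2.80, and in the severe kidneys the lowest, median and highest were 2.58, 3.05 and 4.31. All 5 moderate and all 6 severe kidneys lay above every control, whereas the mild kidneys lay on both sides. The severe mean was 0.76 higher than the control mean (SE 0.22, 1.69-fold, adjusted p = 0.0270 by limma), which passed the adjusted p but not the 2-fold limit. The moderate difference was 0.48 (SE 0.23, adjusted p = 0.277), the mild difference was -0.06 (SE 0.22, adjusted p = 0.919), and severe exceeded mild kidneys by 0.82 (SE 0.22, adjusted p = 0.0992). The highest value was that of severe 5, and the severe-against-mild difference without it was 0.60 (adjusted p = 0.191).

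The 3β-hydroxysteroid dehydrogenases convert pregnenolone and dehydroepiandrosterone to progesterone and androstenedione, and *Hsd3b2* and *Hsd3b3* are 2 of several close mouse copies. None of the other *Hsd3b* genes tested was called in all mgb-/- kidneys. *Hsd3b1*, *Hsd3b4*, *Hsd3b5*, *Hsd3b6* and *Hsd3b7* changed by 2.32, 0.10, 0.54, -0.29 and 0.14 (adjusted p by limma of 0.187, 0.765, 0.542, 0.663 and 0.798). *Hsd3b3* was between 1.85 and 3.66 in the controls (median 3.08), a wider spread than that of the other falling enzymes. It was 0.39 to 2.46 in mild kidneys (median 0.81), 1.31, 3.04, 0.26, 1.72 and 2.85 in moderate 1 to 5, and -1.12 to 3.04 in severe kidneys (median 0.50). The same 4 kidneys as for *Akr1c14* (mild 4, moderate 2, moderate 5 and severe 6) lay in the control range, and the other 14 lay below it. The mean fell by 1.81 (SE 0.48, 3.50-fold, adjusted p = 0.0161 by limma) in all mgb-/- kidneys, by 1.93 (SE 0.54, adjusted p = 0.0361) in mild and by 2.27 (SE 0.56, adjusted p = 0.0122) in severe kidneys, and the moderate difference was -1.09 (SE 0.59, adjusted p = 0.321).

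*Hsd3b2*, read by the brighter of its 2 probes, was 5.86 ± 0.23 (SD, n = 6) in controls, 5.34 ± 0.21 (n = 7) in mild, 5.34 ± 0.52 (n = 5) in moderate and 4.93 ± 0.59 (n = 6) in severe kidneys. By this brighter probe, 14 of 18 mgb-/- kidneys lay below every control. The difference was -0.66 (SE 0.20, adjusted p = 0.0301 by limma) for all mgb-/- and -0.94 (SE 0.23, 1.92-fold, adjusted p = 0.0122) for severe kidneys, so that neither reached 2-fold. The dimmer probe gave -0.41 (adjusted p = 0.230, adjusted over probes) and -0.78 (adjusted p = 0.0347). By the dimmer probe the controls lay between 3.82 and 4.67, and mild kidneys overlapped them at 3.59 to 4.24 (median 3.99). With the mean of the 2 probes, all mgb-/- kidneys differed by -0.54 (adjusted p = 0.0829 by limma). Whether probes of *Hsd3b2* and *Hsd3b3* also bind transcripts of the other copies was not tested, since their sequences were not used here.

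Of the 17β-hydroxysteroid dehydrogenases, *Hsd17b11* fell and *Hsd17b14* rose, and both separated mgb-/- from control kidneys more fully than any other enzyme listed. *Hsd17b11*, a lipid droplet enzyme that oxidizes androgen metabolites, lay between 6.63 and 6.93 in the controls (median 6.80). It was 3.56 to 6.01 in mild kidneys (median 4.43), 3.89, 6.19, 3.60, 4.10 and 5.84 in moderate 1 to 5 and 3.87 to 6.85 in severe kidneys (median 4.36). All mgb-/- kidneys except severe 6 lay below every control, including moderate 2 and moderate 5, which stayed in the control range for the *Akr1c* genes. The mean fell by 2.08 (SE 0.39, 4.24-fold, adjusted p = 0.00250 by limma), and by 2.25 (SE 0.48, adjusted p = 0.00865) in mild and 1.90 (SE 0.49, adjusted p = 0.0158) in severe kidneys. The moderate difference of -2.07 (SE 0.52, adjusted p = 0.0510) was of the same size and just missed the threshold.

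*Hsd17b14*, a dehydrogenase with weak activity towards estradiol, was the only enzyme of the 10 called higher. Its level was -0.03, 0.02, -0.27, 0.16, 0.30 and -0.31 in control 1 to 6. In mild kidneys it was 0.92 to 2.50 (median 2.14), in moderate 1 to 5 it was 1.31, 0.01, 1.78, 1.49 and 0.85, and in severe kidneys it was 0.38 to 2.44 (median 1.94). All mgb-/- kidneys except moderate 2 lay above every control. The mean rose by 1.66 (SE 0.31, 3.16-fold, adjusted p = 0.00218 by limma) in all mgb-/- kidneys, by 2.03 (SE 0.33, adjusted p = 0.00149) in mild and by 1.68 (SE 0.34, adjusted p = 0.00418) in severe kidneys, and the moderate difference was 1.11 (SE 0.36, adjusted p = 0.110). Without all 8 kidneys with adrenal transcripts, both calls in all mgb-/- kidneys held narrowly. *Hsd17b11* then changed by -1.89 (adjusted p = 0.0452 by limma) and *Hsd17b14* by 1.48 (adjusted p = 0.0478).

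*Hsd17b2*, which oxidizes estradiol and testosterone to their weaker forms, was the only enzyme of the 10 called between 2 grades. The controls lay between 0.09 and 0.74 (median 0.23). Mild kidneys had -0.81, -0.96, -1.38, -0.08, -1.78, -1.70 and -2.21 in replicates 1 to 7, moderate kidneys had -0.08, 1.01, -0.86, 0.28 and 0.20 in replicates 1 to 5, and severe kidneys had -0.43, 0.70, 0.21, -0.07, 0.25 and 1.12 in replicates 1 to 6. All 7 mild kidneys lay below every control, while 4 of the 6 severe kidneys and 3 of the 5 moderate kidneys lay within or above the control range. The mild mean was 1.59 lower than the control mean (log2 change -1.59, SE 0.31, 3.01-fold, adjusted p = 0.00547 by limma). The severe mean differed from the control mean by -0.02 (SE 0.32, 95% interval -0.69 to 0.65, adjusted p = 0.980). Directly compared, severe kidneys were higher than mild kidneys by 1.57 (SE 0.31, 2.98-fold, adjusted p = 0.0151). That call was lost without severe 2 (1.49, adjusted p = 0.0614), in a fit on the compared groups alone (1.57, adjusted p = 0.120), with scaling by the median (1.55, adjusted p = 0.0656), with the replicate number as a block (1.42, adjusted p = 0.0725) and without the 8 kidneys with adrenal transcripts (1.47, adjusted p = 0.565), which leaves 2 mild kidneys. Urothelial markers differed between the same grades, with 6 of 8 called higher in the severe group, beside 0.461% of all genes called in either direction. Their summed levels were 6.31 to 7.94 in severe, 3.92 to 6.04 in mild and 3.95 to 4.75 in control kidneys. All 9 adrenal markers tested were lower in severe than in mild kidneys, and none was called. At an unadjusted p under 0.05 by limma were 4 of the 9, beside 3104 of all 27959 genes. The part of the urothelial and adrenal markers in the *Hsd17b2* difference was not tested.

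*Hsd17b1*, which makes estradiol from estrone, was dim, with a control mean of -4.10 ± 0.17 (SD, n = 6) and mgb-/- values from -5.52 to -3.84. It did not pass the test in any of the 7 comparisons, and its difference in all mgb-/- kidneys was -0.33 (95% interval -0.73 to 0.08, adjusted p = 0.279 by limma).

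By grade, mild kidneys had 5 enzymes called lower and 1 higher, where 1.06% of all genes were called lower and 1.15% higher. Severe kidneys also had 5 called lower and 1 higher, beside 1.73% and 2.99% of all genes. The mild list held *Hsd17b2* and lacked *Akr1c21*, and the severe list held *Akr1c21* and lacked *Hsd17b2*, and both comparisons share the 6 controls. In moderate kidneys no enzyme was called (0.73% of all genes in either direction). At an unadjusted p under 0.05 by limma were 5 of the 10 enzymes, beside 5158 of all 27959 genes. The median changes over the 10 enzymes were -1.76 (mild), -0.66 (moderate) and -1.42 (severe), against 0.01, -0.03 and 0.02 over all genes. Leaving out mild 4 and moderate 1 gave 7 calls in mild and 6 in severe kidneys. Leaving out all 8 kidneys with adrenal transcripts gave 0 calls in the 2 mild kidneys left and 6 in the 5 severe kidneys left. For fits with kidneys left out, the share of all genes called was not counted. Fewer calls there also go with fewer kidneys. Without severe 2, or without severe 5, the severe calls were reduced to 3 (*Hsd17b11*, *Hsd17b14* and *Hsd3b3*). Without moderate 2 the moderate calls were 2 (*Hsd17b11* and *Hsd17b14*), and *Hsd17b11* alone was called without moderate 5 or, through the spread that the 4 groups share, without mild 1, mild 4, severe 4, severe 5 or severe 6.

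Between grades, 1 enzyme (*Hsd17b2*) was called in severe against mild kidneys, where 0.461% of all genes were called, with 2 of the 10 at an unadjusted p under 0.05. None was called in moderate against mild kidneys (0% of all genes, 4 enzymes at an unadjusted p under 0.05 by limma) or in severe against moderate kidneys (0.00715% of all genes, 0 enzymes at an unadjusted p under 0.05). Of all 27959 genes, 3104 had an unadjusted p under 0.05 by limma in severe against mild kidneys. In moderate against mild kidneys 1866 had, and in severe against moderate kidneys 2895. The severe-against-mild difference of *Hsd17b14* was -0.35 (95% interval -1.03 to 0.33), that of *Hsd17b11* was 0.36 (-0.63 to 1.34) and that of *Akr1c18* was 0.46 (-0.64 to 1.56). For *Akr1c14* the interval ran from -1.11 to 2.96, which holds both a lower and a higher level in severe kidneys.

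**Figure D3:**
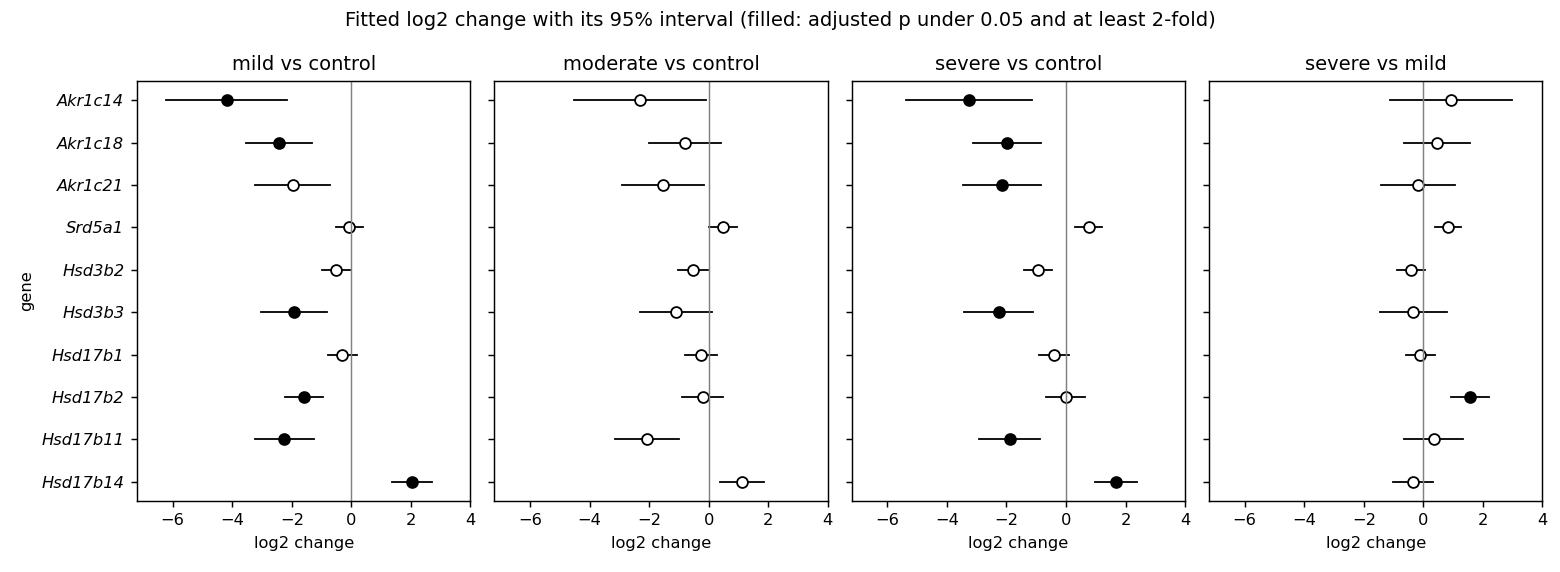
Fitted log2 change of each enzyme (horizontal axes) with its 95% interval in mild, moderate and severe against control kidneys and in severe against mild kidneys; filled points mark called changes. The falling enzymes lie left of 0 in all 3 grades, *Hsd17b14* lies right of 0 in each, and *Hsd17b2* is the filled point in severe against mild kidneys (1.57).

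The spread within a grade was mostly a matter of single kidneys. Severe 6 had 5 of the 6 enzymes called in all mgb-/- kidneys within the control range, with *Hsd17b14* (0.38) just above it. Moderate 2 also had 5 within the range, and moderate 5 had 4 and mild 4 had 3. The other 14 mgb-/- kidneys had none of the 6 in the control range. Moderate 1 was mixed, with *Akr1c18* above every control and the other 4 falling enzymes below every control. Moderate 2, moderate 5 and severe 6, the 3 kidneys with the most enzymes at control level, had *Cyp21a1* of -3.19, -2.12 and -2.15. These values were within the control range, whereas *Cyp21a1* was raised in mild 4. The sum of the 4 markers was also within it (-2.46, -1.74 and -1.69). Another listed adrenal marker, *Mc2r*, was at -5.19 and well above background in moderate 2, against at most -5.78 in the controls. The kidneys at or near the control level thus came from all 3 grades.

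**Figure D4:**
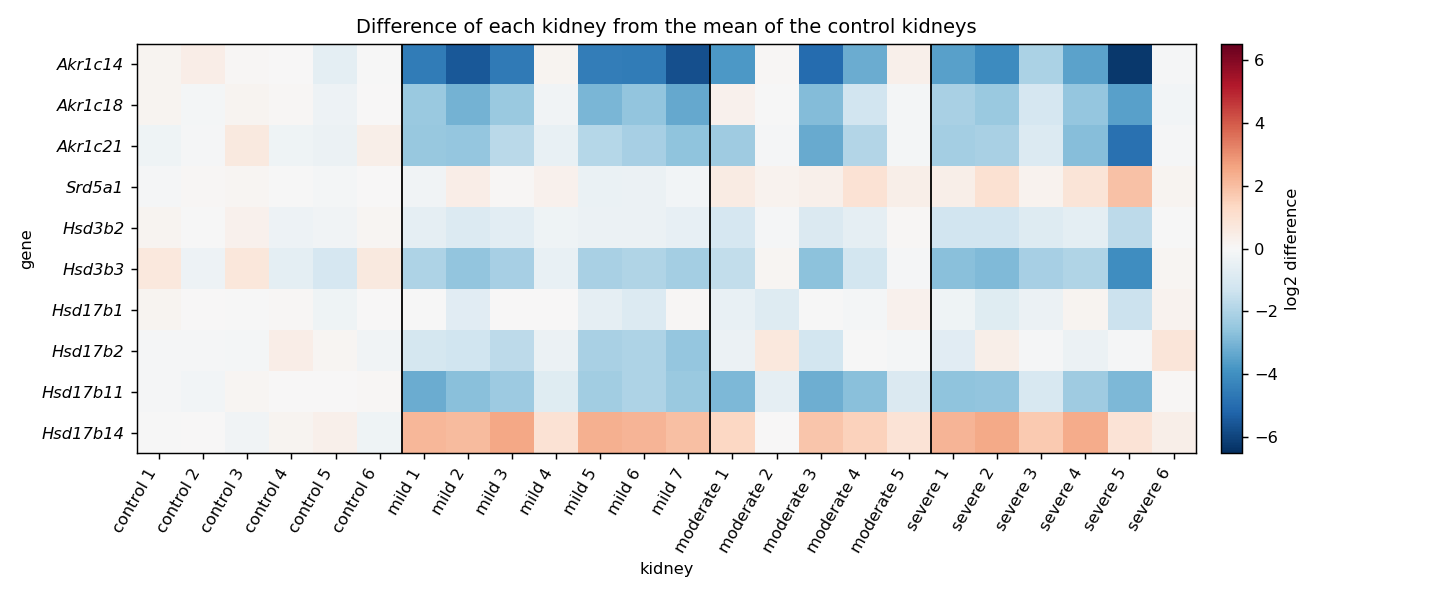
Difference of each kidney from the mean of the 6 control kidneys for each enzyme, on the log2 scale (blue lower, red higher), with kidneys in columns and groups divided by lines. The columns of mild 4, moderate 2, moderate 5 and severe 6 are pale, severe 5 is darkest for *Akr1c14* and *Akr1c21*, and the *Hsd17b2* row is blue in 6 of the 7 mild kidneys but pale or red in most severe kidneys.

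The arrays lay on 3 slides, each with 2 control and 6 mgb-/- kidneys, and all 10 enzymes differed in the same direction on each slide. The difference of *Akr1c14* was -3.63, -2.89 and -3.55 on slides 1 to 3, that of *Hsd17b11* was -2.40, -1.67 and -2.19, and that of *Hsd17b14* was 1.64, 1.13 and 2.20. Of 13 markers of the proximal tubule, the main epithelium of the renal cortex, 0 were called in mgb-/- against control kidneys. At an unadjusted p under 0.05 in limma were 3 of the 13, beside 8108 of all 27959 genes. The largest of these changes was that of *Slc22a6*, an organic anion transporter (-0.96, adjusted p = 0.0647). In severe kidneys all 13 were lower and 2 were called, beside 1.73% of all genes called lower. Their median change was -0.16 in all mgb-/- and -0.50 in severe kidneys, and the part of tubule content in the enzyme levels was not tested. None of the 5 leukocyte and 5 fibroblast markers tested was called in mgb-/- kidneys (0 and 3 had an unadjusted p under 0.05 in limma), with median changes of 0.03 and 0.51. The largest were *Ptprc*, the leukocyte antigen CD45 (0.38, adjusted p = 0.272), and *Col1a1*, a collagen chain (0.71, adjusted p = 0.159). Of the urothelial markers, *Grhl3*, a transcription factor, changed most (2.15, adjusted p = 0.0231).

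Across the 18 mgb-/- kidneys, the genes whose pattern was most like that of each called enzyme were named among 16274 genes as a description, by Pearson's r. For *Akr1c14* they were *Cbs* (0.95), *Slc22a26* (0.95) and *Ces1f* (0.95), and for *Akr1c18* they were *Cyp2d9* (0.91), *Tlcd4* (0.91) and *Ftcd* (0.91). *Akr1c21* was most like *Smlr1* (0.99), *Pzp* (0.98) and *Cyp4b1* (0.98), and *Hsd3b3* was most like *Aldh3a2*, *Ces2c* and *Ppp3cc* (0.97 each). *Hsd17b11* went with *Sap30* (0.97), *Calr* (0.96) and *Chst7* (0.95), and *Hsd17b14* went with *Kcnk1* (0.96), *Mcoln2* (0.95) and *Serpina6* (0.94). *Hsd17b2* stood with *Rhov* (0.95), and the next gene, *Ankrd35*, reached 0.83. Without the 2 kidneys farthest from the median of the enzyme, r was 0.98 for *Smlr1*, 0.94 for *Cbs* and 0.92 for *Tlcd4*, and over all 21 pairs it was 0.73 to 0.98. The kidneys share slides and grades, and those at the control level for several enzymes enter many of these values.

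Of 35 further genes of steroid synthesis and conversion, 28 were tested. In mgb-/- against control kidneys 3 were called lower and 0 higher, beside 1.26% and 1.83% of all genes, with a median change of -0.03. *Cyp7b1*, which hydroxylates oxysterols and dehydroepiandrosterone, lay between 2.34 and 3.59 in controls and had a median of -0.56 in mgb-/- kidneys, a log2 change of -2.91 (SE 0.63, 7.52-fold, adjusted p = 0.00600 by limma). Its values in moderate 2, severe 6 and moderate 5 (3.74, 3.84 and 2.24) were again at or near the control level. *Hsd17b13*, a lipid droplet relative of *Hsd17b11*, changed by -1.41 (SE 0.30, adjusted p = 0.00500) and *Hsd11b1*, which regenerates active glucocorticoid, by -1.16 (SE 0.26, adjusted p = 0.00706). All 3 were lower than the control mean in 16 of 18 mgb-/- kidneys. In mild and in severe kidneys the same 3 were called lower and none higher. Over all genes, 1.06% (mild) and 1.73% (severe) were called lower, and 1.15% and 2.99% higher. In moderate kidneys none of the 28 was called, where 0.73% of all genes were. At an unadjusted p under 0.05 by limma were 5 of the 28, near the share over all genes (5158 of 27959). *Hsd3b1*, the adrenal and gonadal form, was at 5.83 in mild 4 and 5.73 in moderate 1 against -4.14 to -3.12 in the controls, the same 2 kidneys in which the adrenal markers were highest.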

How the data were processed

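Per the labels and the methods, total RNA of each kidney was labelled with Cy3 and hybridized to an Agilent 8x60K array; the authors deposited each array's scanner output (Feature Extraction 10.10 per the submitters' processing notes) and a table of intensities normalized between arrays by a method not given in the sources used here. The deposited intensity used was the processed signal, with background subtracted and no scaling between arrays. Its log2 was taken and scaled by subtracting the 75th percentile of the array's 59305 spots other than controls. Outlier spots were dropped and replicate spots averaged. A probe was kept (38838 of 55681) if 5 or more arrays showed it well above background. Probes were named through RefSeq accessions (26762 named). The annotation's build differs from the array's, so only names and promoter sequence were taken. A probe without a RefSeq name was counted under its own accession, so the 27959 genes tested include such accessions. Each gene was read by its brightest probe. Fits used limma (version 3.58.1, under R 4.3.3): a model of 2 groups gave mgb-/- against control, and a model of 4 groups gave the other comparisons. The number of arrays limits the precision. Figures used matplotlib 3.10.9.

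The members, gene lists and marker lists were chosen with earlier results of these data known. Named genes were all 10 members, further steroid genes with an adjusted p under 0.05 in mgb-/- against control kidneys, the 3 genes most alike to each called member, and the most changed gene of each marker list in that comparison. *Myocd* is named once. *Cyp11a1*, *Cyp11b1*, *Cyp21a1*, *Star*, *Mc2r*, *Pik3c2g* and the other *Hsd3b* and *Akr1c* genes were named after their values were seen. Alternatives were quantile, median and normexp (offset 50) processing, the authors' table, other filters, the mean of probes, slide and replicate blocks, array weights, a looser adjusted p (0.1), dropping the fold minimum, fitting the compared groups alone and leaving out each kidney; leaving out kidneys with adrenal transcripts was chosen after seeing the data. The files lack the mean signal, so normexp used the median signal. The fitting step was tested on simulated data.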

Additional observations from a re-analysis of the deposited data

Results flagged for a closer look

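Mild 4 stood apart from the other 6 mild kidneys, by Dixon's test, for 5 enzymes. Its *Akr1c14* was 3.77 where the next mild kidney had -0.89, its *Akr1c18* 4.99 (next 2.79), its *Akr1c21* 5.63 (next 4.35) and its *Hsd3b3* 2.46 (next 0.97), while its *Hsd17b14* was the lowest of the mild kidneys at 0.92 (next 1.96). In all, 40 groups of values were tested, of which chance flags about 1 in 20. Mild 4 also had the highest adrenal cortex markers of the mild kidneys, whose part in these values was not tested.

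*Hsd17b2* differed between grades: its change against control was larger in mild than in severe kidneys, and the difference of the 2 changes was 1.57 on the log2 scale (adjusted p = 0.0151 by limma).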

How the results depend on the processing

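With 6 enzymes called in mgb-/- against control kidneys, the count was 5 to 7 under all alternatives that changed the processing, the filter, the block or the threshold, and the direction of all 10 changes held. It was 3 to 6 when 1 kidney was left out and 2 without all kidneys with adrenal transcripts. The share of all genes called under each alternative was not counted. In mild kidneys the count of 6 became 3 with the replicate number as a block and 0 without all kidneys with adrenal transcripts, and 5 to 7 when 1 kidney was left out. In moderate kidneys the count of 0 became 1 (*Hsd17b11*) with quantile normalization, normexp, the authors' table, the filter on all 24 arrays, the mean of probes or an adjusted p under 0.1, 3 with array weights, and 0 to 2 when 1 kidney was left out. In severe kidneys it was 3 to 7 when 1 kidney was left out. *Hsd17b2* became 1 call in moderate against mild kidneys with array weights. Its call in severe against mild kidneys became 0 with median scaling, the replicate block, the compared groups alone or without all kidneys with adrenal transcripts, and was 0 to 1 when 1 kidney was left out. The causes were not tested. Changes of sign in severe against mild kidneys concerned enzymes that did not pass the test: *Akr1c21* (-0.18) was 0.41 with array weights, 0.0744 without mild 4 and moderate 1 and 0.0743 without all kidneys with adrenal transcripts, and -0.59 to 0.36 when 1 kidney was left out; *Hsd17b1* (-0.10) was 0.0892 with normexp. With 1 kidney left out, *Hsd17b1* ranged from -0.23 to 0.10, *Hsd3b3* from -0.81 to 0.0183 and *Hsd17b11* from -0.0355 to 0.60. Median scaling moved the median change of all genes from 0.01 to -0.15.

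Replicate numbers showed no pairing of the kidneys by the median. Over 33 pairs with the same number the median correlation of deviations from the group means was 0.00396, and 10 pairs were over 0.1. Over 182 pairs with different numbers the median was 0.00324, and 58 pairs were over 0.1. The highest value was 0.65 with the same and 0.58 with different numbers. Control 1 correlated with mild 1 at 0.60 and with severe 1 at 0.56, and mild 1 with severe 1 at 0.65. Pairing of single numbers was not tested. With the replicate block 5 enzymes were called in mgb-/- against control kidneys, 3 in mild, 4 in severe and 0 in severe against mild kidneys. The group of 5 moderate kidneys, the mixture of cells in whole kidney and 1 probe for most genes limit these values.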
